A study of Mus musculus with 96 samples.

Results

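The 4.3 Mb deletion at mouse 4E2 leaves a short piece of chromosome 4 between its distal end and the telomere, and the viewpoint at 155.5 Mb lies in that piece. The contacts of this viewpoint on the deleted chromosome (Df) were compared with those of the same viewpoint on the intact 129S5 chromosome of control cells (+129). The members are the 4 allele-specific libraries of this viewpoint that read the 129S5 allele, chosen by their labels, out of 96 libraries in the series. Df comes from the mouse embryonic fibroblast (MEF) lines E71 and E98, whose cells carry 1 deleted 129S5SvEvBrd chromosome and 1 intact C57BL/6J chromosome (Df/+DBl6), and +129 comes from lines E117 and E118, which are intact F1 cells of the same strains (+129/+Bl6). All lines were made from 13.5-day embryos and used confluent at passage 4, with 2 lines per genotype as the biological replicates. The engineered chromosome came through germline chimaeras of embryonic stem cells carrying the deletion and the reciprocal duplication (129S5SvEvBrd background) mated to C57BL/6J. Each line also gave a library of its C57Bl6 allele (+DBl6 in the lines with the deletion, +Bl6 in the controls), and these 4 libraries are the intact background within the same cells. Genotype and line cannot be told apart beyond these 4 lines. The edgeR and limma p-values rest on the spread within all 4 chromosome groups, with the 2 alleles of a line counted as separate libraries. They therefore do not measure the spread between lines alone, also for differences between the alleles' changes.

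PE-4Cseq (paired-end circular chromosome conformation capture sequencing) crosslinks chromatin, cuts it with HindIII, joins ends that were close in space, trims the circles with DpnII and amplifies everything joined to 1 fragment, the viewpoint. On any chromosome the contacts fall off steeply with distance along the DNA, since neighbouring segments of a flexible polymer meet most often, and active, gene-rich stretches also meet each other over long distances. A viewpoint near a telomere has sequence on its centromeric side only once the last few fragments are passed, so its profile is one-sided. The region matches human 1p36, where terminal and interstitial deletions cause the monosomy 1p36 syndrome.

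The viewpoint fragment spans chr4:155545694-155555600 (NCBI37/mm9, 9907 bp) inside Agrn, the gene for the heparan sulphate proteoglycan agrin (chr4:155539399-155571536, minus strand, protein-coding). Its distal HindIII end lies 74.52 kb from the end of the assembled chromosome. The last 300 bases of the fragment, chr4:155555301-155555600 on the plus strand, are shown because they carry the base that assigns each read pair to a chromosome. The first capital is the polymorphic base and the last capitals are the HindIII site.
viewpoint end: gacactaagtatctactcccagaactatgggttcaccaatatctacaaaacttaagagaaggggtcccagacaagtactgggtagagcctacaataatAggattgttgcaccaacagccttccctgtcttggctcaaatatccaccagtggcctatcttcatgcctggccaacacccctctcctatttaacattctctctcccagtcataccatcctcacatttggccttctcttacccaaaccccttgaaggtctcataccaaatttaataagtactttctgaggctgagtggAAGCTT
Counting from 1 at the 5′ end of this run, the change from C57Bl6 to 129S5 is A99G, which lies 201 bases before the HindIII end at position 155555399. The parts of the primers that match the genome both lie between the polymorphic base and the last base of the fragment. They are shown here, the DpnII-side primer on the minus strand (chr4:155555435-155555456) and the HindIII-side primer on the plus strand (chr4:155555576-155555597).
primer on the DpnII side: ataggccactggtggatatttg
primer on the HindIII side: actttctgaggctgagtggaag
The read from the first primer crosses the polymorphic base, so the allele was read from the viewpoint and not from its contact.

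The limits of the deletion were taken from viewpoints 1, 2 and 11 only, so that the libraries described here had no part in placing them. At viewpoint 11 the libraries labelled Df E71 and +129 E117 stood apart by their likeness: the log reads of 1024 distant fragments correlated at 0.681, against 0.031 to 0.175 in the other 5 pairs of 129S5 libraries there, and the cause was not tested. The interval ran from chr4:150083826 to chr4:154411694, which is 4.33 Mb and 1108 HindIII fragments, and it holds 78 annotated genes, 47 of them protein-coding. Its distal end lies 1134 kb from the viewpoint fragment, and 70 genes (51 protein-coding) remain between it and the telomere. From viewpoints 1 and 2 alone, the start moved by 1 fragment to 150081026 and the distal end stayed the same. The 30 bases around the HindIII sites at its edges are chr4:150083808-150083837 and chr4:154411677-154411706. They show the last site before the interval and the site at its distal end, with the site in capitals.
proximal edge: tgtgattatcttAAGCTTcaaccttttaac
distal edge: gtaaacaagactAAGCTTgggaacttcagg
These are the edges at fragment resolution, not the engineered junction itself.

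The 4 libraries held 290219 (Df E71), 291297 (Df E98), 148675 (+129 E117) and 208186 (+129 E118) reads on chromosome 4, and the 4 C57Bl6 libraries 167789 to 334767. After the viewpoint fragment and 20 kb on each side of it were left out, 113758 to 170917 reads remained in the 4 libraries, and these are the denominator of every share and of every RPM (reads scaled to 1000000 reads outside the viewpoint zone) below. The viewpoint fragment itself took 29.3% and 41.6% of reads in Df and 14.3% and 19.1% in +129. It also took more on the intact homologue of the same lines, 24.9% and 35.3% in +DBl6 against 12.5% and 17.7% in +Bl6, so this difference moved with the cell lines on both alleles. Fragments with at least 5 reads, called captured fragments here, numbered 1961 and 2674 in Df and 2855 and 3644 in +129. Read by fragment at a distance from the viewpoint, no 2 of the 8 libraries were close to identical. Correlations ran from -0.458 to -0.116 between the 2 alleles of a line and from 0.057 to 0.241 in the other pairs. Each library was counted as 1 sample, though the 2 alleles of a line come from the same cells. No unique molecular identifiers were used, and the 95% Wilson intervals given for shares cover counting error only.

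**Figure D1:**
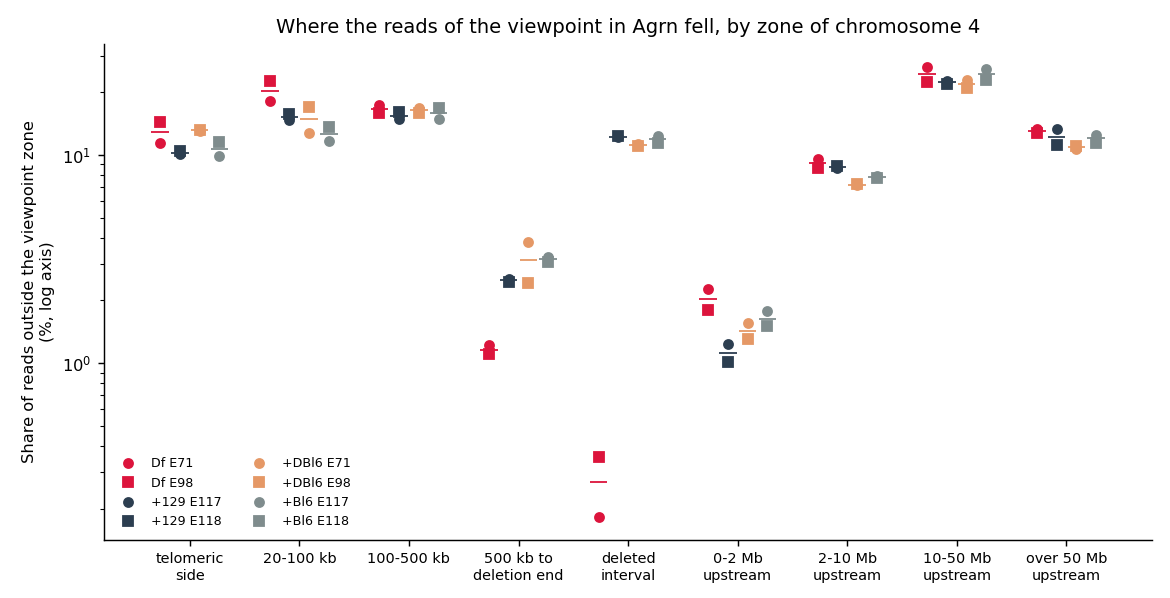
Share of reads outside the viewpoint zone (%, log axis) in 9 zones of chromosome 4, ordered from the telomeric side to the far centromeric end, for each of the 8 libraries of the viewpoint; short lines are group means, circles are lines E71 and E117 and squares lines E98 and E118. The Df points lie below all others in the deleted interval and in the zone from 500 kb to the deletion end, and above all others in the first 2 Mb upstream of the deletion.

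The telomeric side was read only over a short stretch. It holds 16 HindIII fragments, 13 of which had reads in these libraries, and the last of those ends at chr4:155606678. The 3 terminal fragments, 23.442 kb in all, had 0 reads in each of the 8 libraries, which allows a share of up to 0.00176% in Df E71 and 0.00264% in +129 E117. The 10 telomeric fragments beyond the viewpoint zone took 11.4% and 14.4% of reads in Df and 10.1% and 10.5% in +129. Df was higher in both lines, by 1.26-fold, and the difference did not pass the test (log2 difference 0.33, SE 0.14, limma adjusted p = 0.0986), though it did without Df E71 (ratio 1.41, adjusted p = 0.0231). For C57Bl6 the telomeric share was 13.1% and 13.2% in +DBl6 and 9.87% and 11.6% in +Bl6, a ratio of 1.22, and the difference between the alleles' changes was 0.03 on the log2 scale (adjusted p = 0.888). Klhl17, a kelch family gene and the most distal gene with many reads here, had 948 and 927 reads in Df and 329 and 884 in +129. Plekhn1 next to it had 3612 and 3373 reads in Df and 1791 and 2869 in +129. Neither difference passed the test (adjusted p = 0.959 and 0.666, edgeR).

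At equal distance the telomeric side of the viewpoint was read more densely than the centromeric side in all 8 libraries. Between 20 and 51.078 kb from the viewpoint, with 7 fragments on each side, the density was 3841 and 4847 RPM per kb on the telomeric side and 2512 and 3373 on the centromeric side in Df. In +129 it was 3375 and 3514 RPM per kb on the telomeric side and 1720 and 2333 on the centromeric side. The telomeric to centromeric ratio was 1.53 and 1.44 in Df and 1.96 and 1.51 in +129, and the groups overlap. On the C57Bl6 allele the ratio was higher, 2.80 and 2.51 in +DBl6 and 2.86 and 3.14 in +Bl6. The exact permutation test cannot pass with 2 lines against 2, since its smallest two-sided p is 0.333.

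The 20 to 100 kb next to the viewpoint on the centromeric side took 18.2% and 22.5% of reads in Df and 14.8% and 15.8% in +129, a ratio of 1.33. The 100 to 500 kb stretch took 17.3% and 15.9% in Df and 14.8% and 16.1% in +129, where the groups overlap. Neither passed the test (limma adjusted p = 0.0986 and 0.496), and in the nearer stretch the C57Bl6 allele of the same lines was also higher, 12.7% and 17.0% against 11.6% and 13.6%. The share of the viewpoint fragment was higher in the same lines on both alleles, and its part in these values was not tested. In this near flank lie Ttll10, a tubulin glycylase family gene, with 10739 and 8301 reads in Df and 5758 and 7399 in +129, and 9430015G10Rik with 7384 and 7394 reads against 3160 and 5605. Their log2 fold changes, 0.32 and 0.60, did not pass (edgeR adjusted p = 0.393 and 0.145). The second passed with the filter on low counts removed (0.00518).

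Single fragments near the viewpoint differed between the strains. Of 307 fragments within 1.3 Mb, 4 had at least 500 reads and a difference of at least 2-fold between the alleles in all lines. The fragment next to the viewpoint was lower in 129S5 reads, with 2012 and 2922 reads in Df and 582 and 1152 in +129 against 20164 to 42448 on C57Bl6. The other 3, at -45.8, -142 and -285 kb (centromeric), were higher on 129S5 by 3.87-, 18.3- and 35.2-fold. Df and +129 carry the same allele at these fragments, but their values were not all alike. The fragment at -45.8 kb had 36386 and 51470 RPM in Df and 25880 and 35783 in +129. At -142 and -285 kb the groups overlapped. Acap3, an ARF GTPase-activating gene, overlaps the fragment at -285 kb. It had 1029 and 351 reads in Df and 571 and 517 in +129 but 8 to 55 on C57Bl6.

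**Figure D2:**
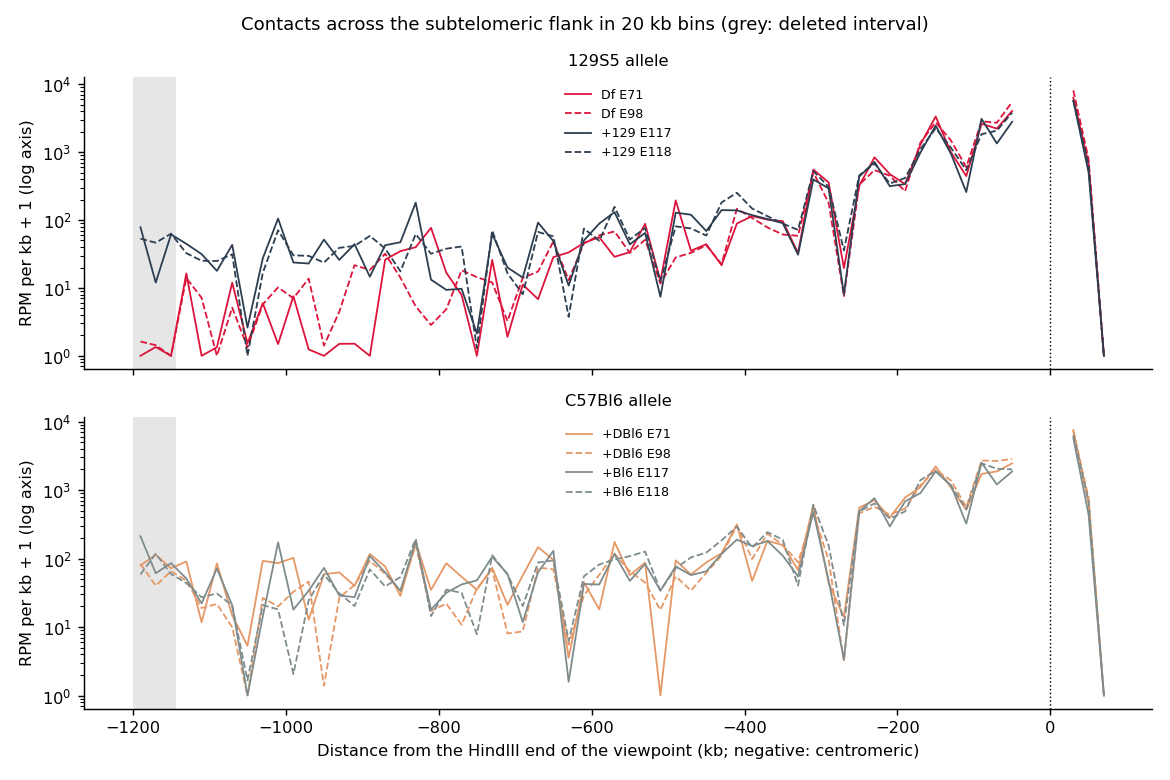
Read density (RPM per kb plus 1, log axis) in 20 kb bins against distance from the HindIII end of the viewpoint (kb), for the 129S5 allele (top) and the C57Bl6 allele (bottom); the viewpoint zone is left blank and the deleted interval is grey. The profiles of the 129S5 allele lie close together out to the bin centred at -410 kb. From -430 kb on, both Df lines lie well below both +129 lines in some bins. From -910 kb to the grey interval they lie below in most bins, and the C57Bl6 lines show no such shared drop.

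Retained sequence beside the deletion lost contacts with the viewpoint. The zone from 500 kb to the deletion end, which is present on the Df chromosome, took 1.22% and 1.10% of reads in Df (Wilson intervals 1.17 to 1.27 and 1.05 to 1.16) and 2.54% and 2.46% in +129 (2.45 to 2.63 and 2.38 to 2.54). Both Df lines lay far below both control lines, a ratio of 0.464 (log2 difference -1.11, SE 0.20, limma adjusted p = 0.00291). In the C57Bl6 libraries the zone took 3.83% and 2.42% in +DBl6 and 3.23% and 3.06% in +Bl6, with overlap. The change on 129S5 differed from that on C57Bl6 by -1.06 (SE 0.28, adjusted p = 0.0186). Counted by captured fragments, which give each fragment the same weight, the ratio was 0.723 and did not pass (adjusted p = 0.0923, against 0.00209 to 0.0337 over the other settings tried).

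In steps of 200 kb from the deletion end, chosen after the zone was seen, the loss was deepest at the deletion. The first 200 kb, with 42 fragments, held 0.0895% and 0.119% of reads in Df and 0.664% and 0.521% in +129, which is 5.18 RPM per kb on average in Df and 29.4 in +129. Only 4 and 10 of the 42 fragments were captured in Df, against 24 and 28 in +129. The log2 difference was -2.51 (SE 0.42, limma adjusted p = 0.00406), and it differed from that on the C57Bl6 allele by -2.67 (SE 0.59, adjusted p = 0.0251). The second step had 0.402% and 0.256% in Df and 0.650% and 0.674% in +129, and the third 0.502% and 0.544% against 0.978% and 1.02%. These were ratios of 0.497 and 0.524, both past the test (adjusted p = 0.0216 for each), but their difference from the C57Bl6 allele did not pass (adjusted p = 0.0860 and 0.125). These 2 calls were not stable. The second step did not pass without Df E98, +129 E117 or +129 E118 (adjusted p = 0.124, 0.0677 and 0.110) or with captured fragments (0.322). The third did not pass with captured fragments (0.284) or with capped reads (0.0534). The third step also did not pass without +129 E117 or without +129 E118, at log2 differences of -0.96 and -0.90. Capped reads limit each fragment to the 95% quantile of the captured fragments of its library. With capped reads the second step differed from the C57Bl6 allele (0.0225). From 600 kb to 800 kb the ratio was 0.675 (adjusted p = 0.110), from 800 kb to 1000 kb it was 1.12, and in the last step before the viewpoint zone it was 1.30, neither past the test.

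The same sequence was captured on the Df chromosome from other viewpoints. Of 77 fragments in the first 400 kb beyond the deletion end, 67 and 70 (the second in E98, outside the alike pair) were captured in Df at viewpoint 11, the other viewpoint in the retained flank, and 23 and 38 at viewpoint 2, upstream of the deletion. At viewpoint 12 the counts were 15 and 25 in Df and 44 and 53 in +129. At viewpoint 2 the share of reads in these 400 kb was higher in Df, 1.23% and 1.01% against 0.479% and 0.319% in +129, and at viewpoint 1 it was lower, 0.754% and 0.591% against 1.49% and 0.979%. Captured fragments at viewpoint 1 numbered 10 and 45 in Df and 31 and 45 in +129. At viewpoint 11 the shares were 14.6% and 13.4% in Df and 15.1% and 10.6% in +129, where the groups overlap. Thus the fragments were present on Df. The shares went in opposite directions at viewpoints 1 and 2, and no test was run on them.

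**Figure D3:**
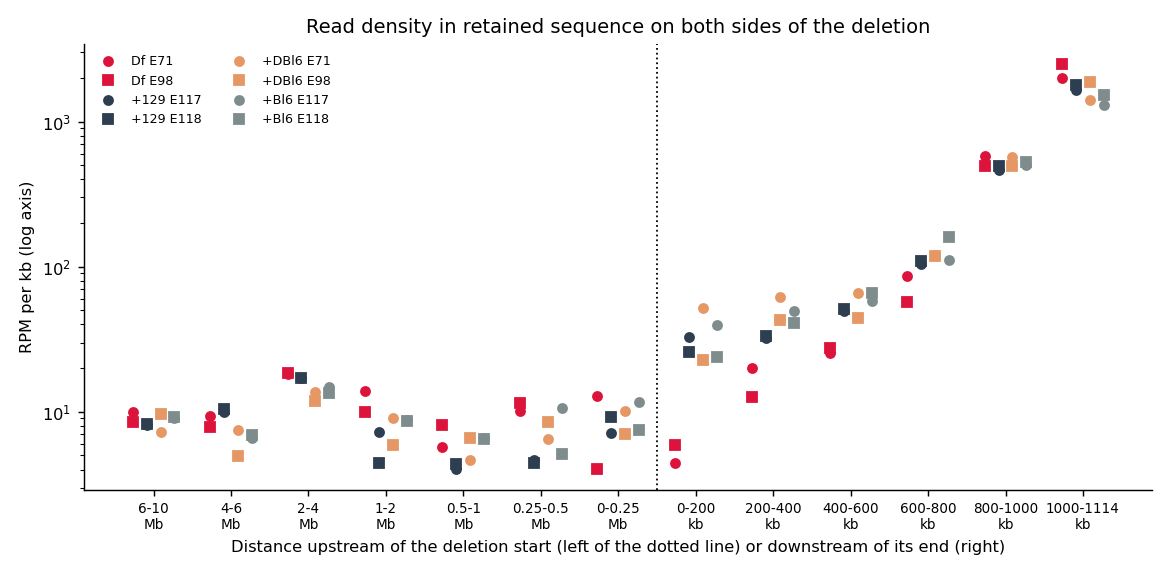
Read density (RPM per kb, log axis) in retained sequence, in steps upstream of the deletion start (left of the dotted line, Mb) and downstream of its end (right, kb), for the 8 libraries of the viewpoint with circles for E71 and E117 and squares for E98 and E118. Both Df points lie far below the others in the first 200 kb downstream of the deletion and above +129 from 0.25 to 2 Mb upstream of it.

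The deleted interval held 311 and 483 reads in Df, 0.182% and 0.353% of reads, and 13813 and 17686 reads in +129, 12.1% and 12.3%. The log2 difference was -5.59 (SE 0.26, limma adjusted p = 3.88e-07), and on the C57Bl6 allele the interval took 11.2% and 11.0% in +DBl6 and 12.3% and 11.4% in +Bl6. The loss checks the labels of both Df lines. The residual Df reads were 1.54% and 3.01% of the reads of the C57Bl6 allele of the same line in this interval. They were spread over 114 and 163 fragments, of which 85 and 145 were also read on the C57Bl6 allele, and 70 and 108 had a single read.

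Reads lost from the interval amounted to 12.0 percentage points of the viewpoint's reads, and they were not taken up by 1 zone. Relative to +129, the mean Df share was higher by 5.09 points at 20 to 100 kb, 2.68 on the telomeric side, 2.24 at 10 to 50 Mb upstream of the deletion, 1.20 at 100 to 500 kb, 0.916 at 0 to 2 Mb upstream, 0.795 at over 50 Mb and 0.381 at 2 to 10 Mb, and it fell by 1.34 between 500 kb and the deletion end. Among these gains, that of the first 2 Mb upstream passed the test. The C57Bl6 allele of the same lines, which keeps the interval, was also higher in the zones near the viewpoint. The gain of +DBl6 over +Bl6 was 2.24 points at 20 to 100 kb, 2.40 on the telomeric side and 0.505 at 100 to 500 kb. In the other zones +DBl6 was lower. With the interval left out of the denominator in every library, so that proportional uptake gives a ratio of 1, the ratios were 1.11 on the telomeric side, 1.17 at 20 to 100 kb, 0.948 at 100 to 500 kb, 0.408 between 500 kb and the deletion end, 1.60 at 0 to 2 Mb upstream, 0.918 at 2 to 10 Mb, 0.969 at 10 to 50 Mb and 0.937 beyond. On the C57Bl6 allele the ratios of +DBl6 to +Bl6 were 1.21 on the telomeric side, 1.17 at 20 to 100 kb, 1.02 at 100 to 500 kb and below 1 elsewhere. For Df, the zone beside the deletion (limma adjusted p = 0.000411) and the first 2 Mb upstream (adjusted p = 0.00911) departed from 1, and the other 6 zones did not pass. For the upstream zone the ratio was 1.42 without Df E71 and 1.45 without +129 E118, and it no longer passed (adjusted p = 0.125 and 0.117).

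Sequence that the deletion brings nearer gained contacts. The first 2 Mb upstream of the deletion start, moved from 5462 kb to 1134 kb of chain from the viewpoint at its near edge, took 2.27% and 1.80% of reads in Df (Wilson intervals 2.20 to 2.34 and 1.73 to 1.87) and 1.23% and 1.01% in +129 (1.17 to 1.30 and 0.956 to 1.06). The groups do not overlap, with a ratio of 1.82 (log2 difference 0.86, SE 0.17, limma adjusted p = 0.0037). The C57Bl6 allele went the other way, 1.56% and 1.31% in +DBl6 against 1.77% and 1.50% in +Bl6, and the difference between the alleles' changes was 1.05 (SE 0.25, adjusted p = 0.0130). The gain was not graded by nearness to the junction: the first 250 kb was at 0.325% and 0.101% in Df and 0.178% and 0.232% in +129 (ratio 1.04), where the Df lines lay on both sides of the controls. From 250 to 500 kb the shares were 0.256% and 0.291% in Df and 0.118% and 0.112% in +129 (ratio 2.38, adjusted p = 0.0216), from 0.5 to 1 Mb the ratio was 1.64 (adjusted p = 0.0582), and from 1 to 2 Mb the shares were 1.40% and 1.00% against 0.730% and 0.446% (ratio 2.05, adjusted p = 0.0277). The call from 250 to 500 kb was lost without +129 E117 or +129 E118 (adjusted p = 0.0668 and 0.110), and that from 1 to 2 Mb without Df E71 or +129 E118 (0.0676 and 0.225). From 0.5 to 1 Mb the step passed with the replicate block (0.0328), without Df E71 (0.0337), with captured fragments (0.00346) and with capped reads (0.0429). Without Df E71 the first 250 kb was lower in Df E98 than in +129 (log2 difference -1.01, adjusted p = 0.0337). In these upstream steps the difference between the alleles' changes did not pass (adjusted p = 0.0860 to 0.968), except from 1 to 2 Mb with captured fragments (0.0236) and capped reads (0.0225). From 2 Mb upstream onwards the ratios were 1.08, 0.842 and 1.14 to 10 Mb, none past the test. Among the genes tested here, Rere, encoding a nuclear receptor coregulator upstream of the deletion, had 955 and 471 reads in Df and 137 and 417 in +129 (log2 fold change 1.17, edgeR adjusted p = 0.352).

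At viewpoint 11, 0.604 Mb from this one on the side of the deletion, the first 2 Mb upstream took 8.71% and 6.58% of reads in Df and 7.05% and 2.80% in +129, a ratio of 1.55 beside 1.82 here. Without the 2 alike libraries of viewpoint 11, the values there were 6.58% in Df E98 and 2.80% in +129 E118, and no difference between the viewpoints was tested.

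At equal chain length the Df chromosome met its new neighbour less often than the control met its own. Over the 4.33 Mb that follow the deletion end in +129 the density was 28.1 and 28.5 RPM per kb, and over the 4.33 Mb that follow the junction in Df it was 13.9 and 12.9 RPM per kb, a ratio of 0.474. These are different sequences at the same distance from the viewpoint. For the same upstream sequence, +129 had 11.2 and 10.8 RPM per kb, so Df was 1.22-fold above its own control with the interval kept in the denominator. The interval held 12.1% and 12.3% of those reads in +129 and 0.182% and 0.353% in Df. Its loss alone raises the RPM of all retained sequence in Df. The ratio at equal distance was 0.221 in the first 250 kb, 0.413 in the next, 0.153 from 0.5 to 1 Mb, 0.388 from 1 to 2 Mb and 0.716 beyond. Each comparison had no overlap between the 2 lines of each group, at an exact permutation p of 0.333, which is the floor of the test.

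**Figure D4:**
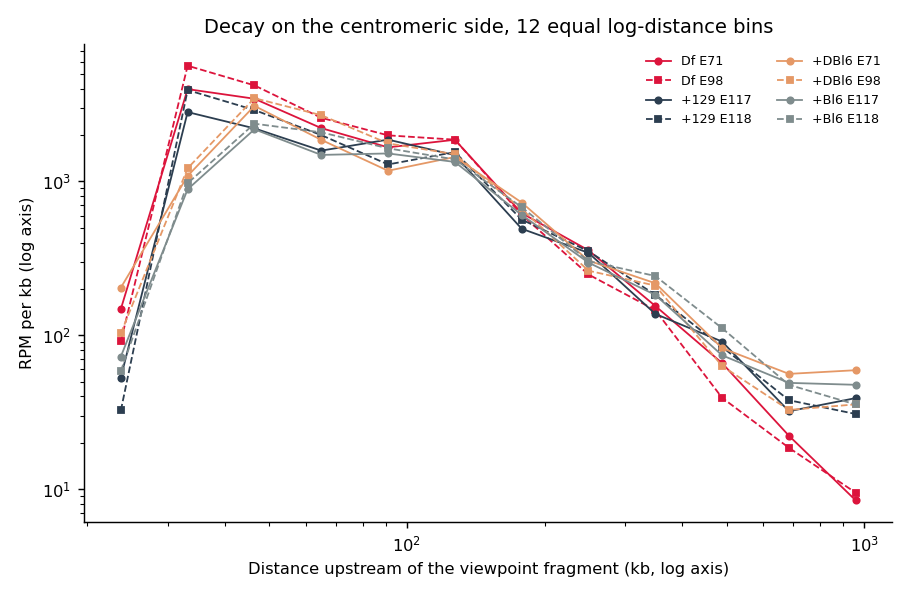
Read density (RPM per kb, log axis) against distance upstream of the viewpoint fragment (kb, log axis) in 12 bins from 20 kb to the deletion end, for the 8 libraries. The mean Df density lies above +129 up to 178 kb and below it from 249 kb on, with the widest gap in the farthest bin.

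The decay on the centromeric side was steeper on Df. Over 12 equal bins of log distance from 20 kb to the deletion end, on sequence that all 4 chromosomes hold, the slope of log10 density against log10 distance was -1.30 and -1.36 in Df and -0.877 and -0.873 in +129. It was -0.842 and -0.952 in +DBl6 and -0.733 and -0.734 in +Bl6. The Df exponent was thus lower by 0.454 on average (-1.33 ± 0.04 against -0.875 ± 0.003, SD, n = 2 each, two-sided exact permutation p = 0.333, the smallest possible). On the C57Bl6 allele the difference had the same sign, -0.163. Both differences depended on the measure. With the slope of a spline at 100 kb they were -0.204 on 129S5 and -0.183 on C57Bl6, without the allele-dependent fragments -0.468 and -0.405, with captured fragments -0.201 and -0.0111, and with distances from 50 kb -0.549 and -0.0495. The exponents moved as well, to -2.17 in Df and -1.62 in +129 with distances from 50 kb, divided into 12 new bins. That start leaves out the 2 nearest of the bins above, with 2 fragments each, and part of the next. By bin, only the farthest, centred at 958.4 kb, passed the test: 8.45 and 9.47 RPM per kb in Df against 39.0 and 30.8 in +129 (log2 difference -1.95, SE 0.29, limma adjusted p = 0.00445). Its difference from the C57Bl6 allele was -2.11 (SE 0.41, adjusted p = 0.0197). This bin covers retained sequence beside the deletion, and the 7 bins nearest the viewpoint had a positive log2 difference that did not pass.

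Of 988 windows of 80 kb tested along the chromosome, 51 (5.16%) differed between Df and +129 and all were lower in Df (edgeR, adjusted over the windows of 4 viewpoints). A Mann-Whitney rule after the study's methods called 55 (5.57%), also all lower. Of the 55 windows that overlap the deleted interval, 50 were among them. The 3 with the smallest adjusted p all lay in the interval. The first, chr4:153280001-153360000 with Dffb, the gene of a DNA fragmentation nuclease, had 64.4 and 73.0 RPM in Df and 6575 and 4295 in +129 (adjusted p = 9.29e-07). The second, chr4:154240001-154320000 with Mmel1 and Tnfrsf14, had 11.7 and 29.2 RPM against 2945 and 3758 (adjusted p = 1.65e-06). The third, chr4:151360001-151440000 with Thap3, Phf13 and Nol9, had 5.85 and 0 RPM against 4158 and 3061 (adjusted p = 1.65e-06).

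Outside those, the losses reached into retained sequence. The window chr4:154400001-154480000, which starts in the interval and continues past its end over Pex10, Rer1 and Morn1, had 392 and 453 RPM in Df and 2998 and 2754 in +129 (log2 -2.63, SE 0.62, adjusted p = 0.0121). The window after it, chr4:154480001-154560000 with Morn1 and Ski, lies wholly in retained sequence and had 369 and 299 RPM in Df and 2839 and 2315 in +129 (log2 -2.82, SE 0.76, adjusted p = 0.0428). Neither call was stable: the first did not pass without Df E71, +129 E117 or +129 E118 (adjusted p = 0.0988, 0.138 and 0.0995), and the second without any of the 4 libraries in turn (0.233 to 0.377), with the sign kept throughout. No window was called higher in Df by edgeR, where 17 were higher at an unadjusted p under 0.05, but DESeq2 called 68 windows, 8 of them higher in Df. The fit with the purification batch as a replicate block and the fit without Df E71 called 2 higher each, and the fit without the filter on low counts called 1. On the C57Bl6 allele 0 of 988 windows (0%) were called by edgeR, with 45 at an unadjusted p under 0.05, and DESeq2 also called 0. The 3 with the smallest p there, none past the test (adjusted p = 1.00), were at Gm13247 and Gm13251, in a window with no protein-coding gene 10.6 Mb away, and at Ppt1 and Cap1. The change on 129S5 differed from that on C57Bl6 in 43 windows (4.35%), all in the interval and all lower, and DESeq2 called 56, with 4 higher. The 3 with the smallest p were the Dffb and Thap3 windows above and the window of Kcnab2 and Nphp4, which had 23.4 and 36.5 RPM in Df and 3323 and 4435 in +129.

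By gene, reads were summed over the HindIII fragments that overlap each protein-coding gene, so neighbouring genes can share a fragment and are not independent. Of 617 genes tested, 29 (4.70%) were called, all lower in Df, of which 27 overlap the deleted interval. The other 2 lie in the retained flank. Ski, a proto-oncogene and repressor of TGF-beta signalling 116 kb past the deletion end, had 42 and 87 reads in Df and 314 and 349 in +129 (log2 -2.49, SE 0.67, edgeR adjusted p = 0.0275). For C57Bl6, Ski had 936 and 361 reads in +DBl6 and 392 and 167 in +Bl6, and the difference between the alleles' changes was -3.39 (adjusted p = 0.0437). C030017K20Rik, 414 kb past the end, had 1 and 28 reads in Df and 179 and 180 in +129 (log2 -3.67, SE 0.95, adjusted p = 0.0229), and its difference from the C57Bl6 allele did not pass (adjusted p = 0.387). Both calls depended on the libraries: Ski did not pass without Df E71, +129 E117 or +129 E118 (adjusted p = 0.309, 0.215 and 0.174) or in a fit of the 4 libraries alone (0.178), and C030017K20Rik did not pass without the same libraries (0.0568, 0.190 and 0.139) or in the 4 alone (0.402). The sign was negative in all of these. By gene, 0 of 617 (0%) were called on the C57Bl6 allele by edgeR, with 37 at an unadjusted p under 0.05, and DESeq2 called 3. The difference between the alleles' changes was called in 18 genes (2.92%), 17 of them in the interval and the other being Ski.

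The fragment of Ski with the most reads among those captured in both +129 libraries, chr4:154538778-154545973, is shown by the 30 bases around its distal HindIII site (chr4:154545956-154545985, site in capitals).
Ski fragment: gggccctgccacAAGCTTtctttaatgtaa
It had 1 and 6 reads in Df and 126 and 51 in +129, and 1 to 225 on the C57Bl6 allele. A single fragment therefore varied widely between lines, and the test rests on the sum over the gene.

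All 14 genes tested within 600 kb of the deletion end had a negative log2 fold change, with a median of -1.11, and 2 passed the test. Over all 617 genes the median was -0.07, 314 (50.9%) had a negative value and 4.70% were called, and neighbouring genes share fragments. Beyond 600 kb, 19 of 33 genes had a positive and 14 a negative value, with a median of 0.02, and none passed. Prkcz, an atypical protein kinase C 223 kb past the end, had 576 and 242 reads in Df and 634 and 648 in +129 (log2 -0.94, adjusted p = 0.308). Gnb1, a G protein beta subunit at 454 kb, had 236 and 259 reads against 425 and 420 (log2 -0.97, adjusted p = 0.459), where the lines do not overlap. Pex10, a peroxisome biogenesis gene 29.4 kb past the end, had 0 reads in both Df libraries and 12 and 29 in +129 and had too few to be tested. Among the 20 downstream genes with the most reads, 14 had higher and 6 lower values in Df and none passed. The highest of them was Ttll10, and others near the viewpoint were Ube2j2, a ubiquitin-conjugating enzyme, with 3139 and 2113 reads in Df and 1699 and 1944 in +129, and Sdf4 with 2436 and 2548 against 1468 and 2104.

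Of 12 genes of chromosome 4 taken as candidates of the monosomy 1p36 syndrome, 10 could be tested and 3 were lower in Df, against 4.70% of all genes tested: Prdm16 and Kcnab2, which are inside the interval, and Ski outside it. Prdm16, a transcriptional regulator of brown fat and heart, had 50 and 78 reads in Df and 1298 and 1494 in +129 (adjusted p = 2.94e-08). Kcnab2, a potassium channel beta subunit, had 1 and 6 reads against 229 and 326 (adjusted p = 4.41e-05). Gabrd, Atad3a, Mmp23 and Casz1 did not pass, and neither did Rere, Prkcz and Gnb1. Agrn holds the viewpoint and has no fragment outside the viewpoint zone. The median log2 fold change of the list was -1.32. Genes inside the interval lose reads on Df by the deletion itself, and 27 of the 39 tested there were lower. Of 10 genes listed as deleted, 9 could be tested and all 9 were lower, with a median of -6.36. They include Camta1, a calmodulin-binding transcription activator, with 98 and 81 reads in Df and 1501 and 2020 in +129 (adjusted p = 3.98e-09), and Nphp4, a nephrocystin, with 4 and 5 against 403 and 703 (adjusted p = 5.48e-07). Hes2 had at most 10 reads in any library and was not tested.

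Of the 7 TNF receptor family genes of the region, 2 were lower in Df, against 4.70% of all genes tested, and both are in the interval, where 27 of 39 genes tested were lower. Tnfrsf9 had 2 and 1 reads in Df and 85 and 246 in +129 (adjusted p = 0.000628), and Tnfrsf14 had 0 and 1 against 58 and 132 (adjusted p = 0.0252, and 0.0682 to 0.234 with each of the 4 libraries left out). Tnfrsf25, also deleted, had 1 and 0 reads against 72 and 63 and did not pass (adjusted p = 0.280). Tnfrsf4 and Tnfrsf18, costimulatory receptors of T cells that lie together 155 and 143 kb from the viewpoint, were both retained. Tnfrsf4 had 2651 and 2233 reads in Df and 1436 and 1979 in +129, and Tnfrsf18 had 2548 and 2203 against 1197 and 1442. Their log2 fold changes were 0.32 and 0.64 and did not pass (adjusted p = 0.959 and 0.320). Over the 7 genes the median log2 fold change was -0.52.

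Distal contacts were described over 1784 windows of 80 kb more than 10 Mb away, which took 45.5% and 39.9% of reads in Df and 40.7% and 38.1% in +129. A window counted as reproducible in a group when both lines had at least 2 captured fragments in it. There were 246 such windows in Df and 347 in +129, and 232 in +DBl6 and 360 in +Bl6, so the count was lower in the lines with the deletion on both alleles. Captured fragments numbered 1961 to 3053 in these lines and 2855 to 3701 in the controls over both alleles, and their part in this count was not tested. Both groups shared 177 windows, which is 72.0% of the Df windows and 51.0% of the +129 windows. Each line alone gave 376 and 514 windows in Df and 500 and 583 in +129.

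The distal contacts lay mainly in the next 40 Mb of the chromosome. Of the 177 shared windows, 55 were 10 to 20 Mb away, 42 were 20 to 30 Mb away and 60 were 30 to 40 Mb away, while 15 lay from 40 to 50 Mb and 5 beyond. The stretch from 30 to 40 Mb took 8.69% and 8.32% of reads in Df and 8.43% and 7.92% in +129, as much as the stretch from 10 to 20 Mb (9.85% and 7.61% in Df, 8.19% and 7.81% in +129), and the share then fell to 4.01% and 3.18% in Df and 3.39% and 3.29% in +129 from 40 to 50 Mb. The shared windows held 2.10 protein-coding genes on average and a median GC content of 47.2%, against 1.07 genes and 40.9% over all distal windows with assembled sequence. At least 1 gene was present in 88.1% of them, against 60.3% of all. The shared windows lay nearer, at a median of 29.0 Mb against 81.4 Mb. Among windows 10 to 40 Mb away, the 157 shared ones held 2.15 genes and all 371 held 1.91, with a median GC content of 47.6% in both.

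**Figure D5:**
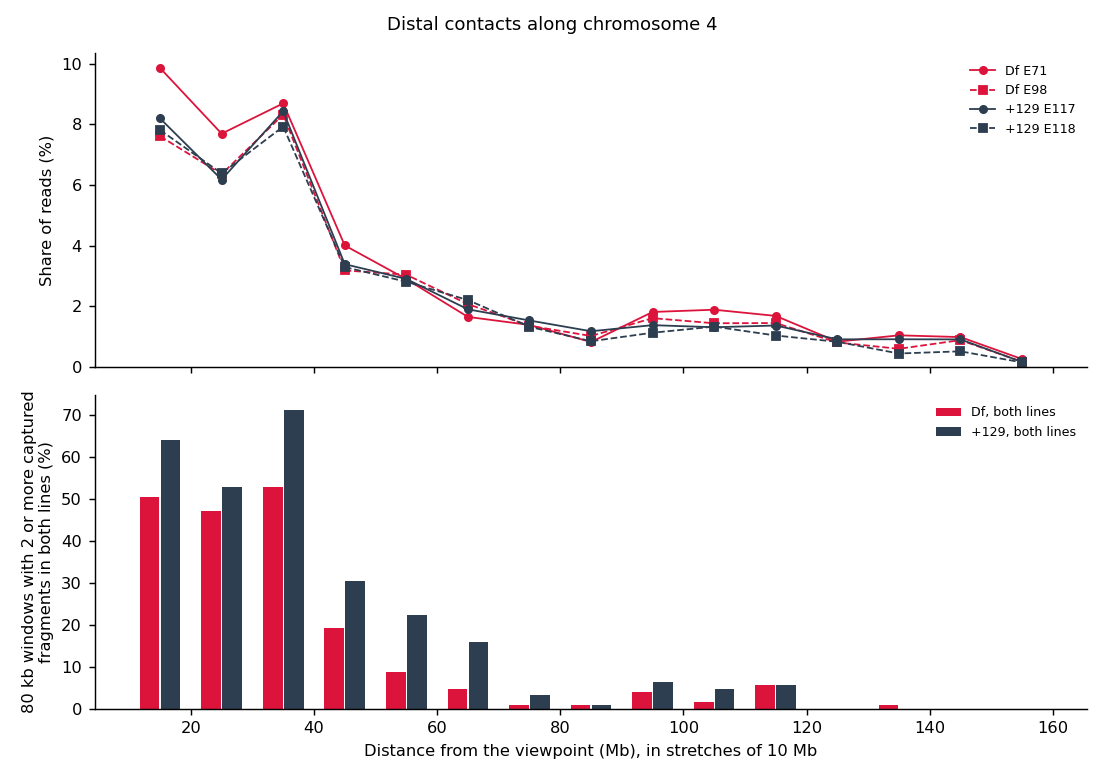
Top: share of reads (%) in stretches of 10 Mb by distance from the viewpoint (Mb), for the 4 libraries of the 129S5 allele. Bottom: percentage of the 80 kb windows in each stretch with at least 2 captured fragments in both lines of Df or of +129; both panels are highest within 40 Mb, and the bars are lower in Df than in +129 out to 80 Mb while the read shares overlap.

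The window with the highest minimum over the 4 libraries, chr4:144640001-144720000 in Vps13d, a lipid transfer protein gene 10.9 Mb away, had 3130 and 1752 RPM in Df and 2734 and 1924 in +129. The adjoining window of Vps13d had 1492 and 2365 RPM in Df and 1574 and 2970 in +129. The windows of Mknk1, Kncn and Dmbx1, of Smap2 and Col9a2, of Ppt1 and Cap1, of Csf3r, Mrps15 and Oscp1, of Atp13a2, Mfap2, Crocc and Necap2, of Sf3a3, Inpp5b and Mtf1, and of Trit1, Bmp8b, Gm17244 and Oxct2b were also among the leading 10. Of the 9 windows described, the Mknk1 window was lower in both Df lines (1656 and 1467 against 2813 and 2489 RPM) and the Ppt1 window higher in both (2112 and 2811 against 1872 and 1255 RPM). In the other 7 the lines overlapped, and no distal window was called in the fit described above.

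Within such windows the lines seldom used the same fragments. In the Vps13d window 8 and 9 fragments were captured in Df and 8 and 10 in +129, of 25, and 1 fragment was captured in all 4 libraries. In the Trit1 window 8 and 10 were captured in Df and 9 and 10 in +129, of 22, and 3 in all 4. The HindIII ends of the fragment captured in all 4 libraries in the Vps13d window, and of the most-read of the 3 such fragments in the Trit1 window, chr4:144718102-144718131 and chr4:122769311-122769340, are shown with the site in capitals.
Vps13d fragment: agccgagactacAAGCTTggaagaacttgc
fragment of the Trit1 window: atcggcaaatgtAAGCTTggaattatttta
The first had 45 and 7 reads in Df, 50 and 7 in +129 and 0 in all C57Bl6 libraries. The second had 220 and 29 reads in Df and 10 and 5 in +129, and accounts for part of the 5114 RPM of that window in Df E71. The most-read fragment of each library, which was another one, held 20.6% to 38.9% of the reads of the Vps13d window and 20.5% to 39.8% of those of the Trit1 window over the 4 libraries.

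Read from the other end, the subtelomere gave no uniform change. The last 100 kb before the viewpoint and everything beyond it took 0.641% and 0.296% of reads in Df and 0.249% and 0.458% in +129 at viewpoint 1, 7.58 Mb away in the intact chromosome, where the lines overlap. At viewpoint 2, 6.63 Mb away, it took 0.260% and 0.113% in Df and 0.0552% and 0.0112% in +129, higher in both Df lines, from 371 and 348 reads against 170 and 48. At viewpoint 11 it took 0.509% and 0.308% in Df and 0.355% and 0.567% in +129, with overlap, where the alike libraries are the first of each group. These shares rest on 2 to 27 captured fragments in a library, and no test was run on them.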

How the data were processed

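Read pairs were sorted by primer and by the strain-specific base in the viewpoint read; the contact read was trimmed to 30 bases and aligned with Bowtie (version not given in the sources used here), allowing 3 mismatches and unique hits, to sequences at HindIII sites of the mm9 assembly. The deposited values are counts of reads per HindIII fragment, made by the authors, without normalization. A further set of deposited tables holds start and end positions of regions from the authors' own comparisons and was not used.

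The 48320 fragments were matched to HindIII sites of the same build. Members, gene lists and settings were chosen with earlier results of these data known. Reads within 20 kb of the viewpoint were left out. edgeR 4.0.16 (quasi-likelihood, TMM) was fitted to all 8 libraries in 80 kb windows and in genes, keeping those read at least 10 times by 50% or more of the libraries, with Benjamini-Hochberg adjustment (windows over 4 viewpoints, genes over this one) and a threshold of 0.05. limma 3.58.1 was fitted to log2 shares and densities over all zones, steps or bins. Two-sided exact permutation tests were run on single values. The interval was placed by binomial likelihood of captured fragments. Scripts were tested on simulated data. Alternatives were DESeq2 1.42.0, no filter, other window and zone sizes, captured or capped reads, a Mann-Whitney rule after the study's methods, each line left out, and the purification batch (column for E71 and E117, beads for E98 and E118) as a replicate block. Windows were named by lowest adjusted p, 3 for each contrast, or by lowest p where none passed, and, for distal contacts, the 10 with the highest minimum RPM in all 4 libraries, of which 1 is not reported here; named genes were the 20 downstream genes with the most reads and those of the lists. Other genes, windows and fragments were named after their values were seen. Symbols came from GENCODE vM1 on the same build, and Python 3.11.15 and R 4.3.3 were used. Depth was 148675 to 334767 reads per library, of which 112288 to 179700 lay outside the viewpoint zone.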

Additional observations from a re-analysis of the deposited data

Results flagged for a closer look

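The items here had a change on the 129S5 allele (Df against +129) that differed from the change on the C57Bl6 allele of the same lines (+DBl6 against +Bl6), by a test of the difference itself, on the log2 scale. By zone (limma), the difference was -5.50 for the deleted interval (adjusted p = 5.97e-06), -1.06 for the retained sequence from 500 kb to the deletion end (adjusted p = 0.0186) and 1.05 for the first 2 Mb upstream of the deletion (adjusted p = 0.0130). By distance, it was -2.11 for the bin centred at 958.4 kb (adjusted p = 0.0197). By window (edgeR), it passed in 43 of 988, all in the deleted interval. By gene outside the interval, it passed for Ski alone of those tested, at -3.39 (adjusted p = 0.0437), where Ski had 42 and 87 reads in Df, 314 and 349 in +129, 936 and 361 in +DBl6 and 392 and 167 in +Bl6.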

How the results depend on the processing

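The 51 windows called in Df against +129 became 29 in a fit of the Df and +129 libraries alone, 28 in 160 kb windows and 14 with captured fragments, where 31 windows could be tested. The count rose to 68 with DESeq2 (8 of them higher in Df) and to 65 in 40 kb windows (all lower). The Mann-Whitney rule called 55 (5.57%), all lower in Df and 50 of them in the interval. The 29 genes became 47 with DESeq2 (3 of them higher in Df), 19 in the 4 libraries alone and 6 with captured fragments, where 24 genes could be tested, and 18 to 27 with each replicate left out. On the C57Bl6 allele, DESeq2 called 3 genes. With captured fragments the ratio of the zone from 500 kb to the deletion end was 0.723 (adjusted p = 0.0923), or 0.617 with the interval out of the denominator (adjusted p = 0.0603). The ratio of the first 2 Mb upstream with the interval out of the denominator was 1.42 to 1.79 with each replicate left out. The first 200 kb beyond the deletion passed in every setting run for it, with ratios of 0.152 to 0.367. With the interval kept in the denominator, zones from 2 to 10 Mb passed with captured fragments (1.27) and capped reads (1.22), and 10 to 50 Mb with capped reads (1.22). Reproducible distal windows were 606 in Df and 680 in +129 with 1 captured fragment, 219 in +129 with 10 reads per fragment, and 376 to 514 in Df and 500 to 583 in +129 from a single line. With reads capped at 5 per fragment the interval was 4.32 Mb, and from viewpoints 1 and 2 alone, a setting chosen after seeing the data, it was 4.33 Mb, 1 fragment longer. A viewpoint zone of 50 kb left no reads on the telomeric side and gave no value there. The cause of these differences was not tested.

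With the purification batch as a replicate block, 55 windows and 30 genes were called in Df against +129, 50 windows differed between the alleles and 1 gene was called on C57Bl6. The telomeric side (adjusted p = 0.0341), the 20 to 100 kb stretch (0.0130) and 9430015G10Rik (0.000332) passed with the block. Over 988 windows the deviations of same-numbered lines did not correlate (0.023 and -0.004). The viewpoint fragment, however, took a larger share in the bead line of each group. The shares were 41.6% against 29.3% in Df and 19.1% against 14.3% in +129. On C57Bl6 they were 35.3% against 24.9% in +DBl6 and 17.7% against 12.5% in +Bl6. The part of the batch in these values was not tested. The block changed no other zone call.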
